A study of Mus musculus with 6 samples.

Results

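The genes described are Trp53, which encodes the tumour suppressor p53, and 9 genes that p53 switches on: Mdm2, Ccng1, Btg2, Gadd45a, Sesn1, Sesn2, Gdf15, Phlda3 and Trp53inp1. They were listed by name, with earlier results of these data known, and are 10 of the 20145 named genes on the array. All 10 were measured, by 11 probes on 12 spots, Trp53 with 1 probe printed on 2 spots and Trp53inp1 with 2 probes. All 12 spots were well above background on all 6 arrays, so no gene was lost to the filter on dim probes.

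The series compared 3 samples labelled Plk2 -/- (called Plk2 null here) with 3 samples labelled wild type. All 6 were primary mammary epithelial cells from dissociated mammary glands of female mice aged 8 weeks, of 129sv/C57Bl6 strain background, and each was hybridised to its own 1-colour array. Plk2 is a polo-like serine/threonine kinase whose gene is itself a p53 target. The labels name neither an agent that damages DNA nor a sort for epithelial cells. The labels do not say which part of Plk2 was deleted, or whether each sample came from 1 animal or from a pool. The p-values therefore measure only the spread between these samples.

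p53 is a transcription factor that is made all the time and destroyed almost as fast, because Mdm2, a ubiquitin ligase, marks it for the proteasome. Damage or other stress frees p53 from Mdm2, and p53 then switches on genes that halt the cell cycle, repair DNA, adjust metabolism or kill the cell, with Mdm2 itself among them as a brake. Since p53 is controlled mainly as a protein, the mRNA of Trp53 says little about its activity, and the mRNAs of its targets are the usual readout. Many of these targets also answer other signals: Sesn2 and Gdf15 are targets of the stress factor ATF4, and Btg2 is an immediate early gene. In the mammary gland p53 restrains tumour formation.

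Levels are given as log2 of the processed signal minus the 75th percentile of its array, and a difference is Plk2 null minus wild type on that log2 scale, tested with limma and adjusted over all 24613 entries (a named gene or an unmatched probe). Array values correlated at 0.975 to 0.989 among the Plk2 null samples, 0.987 to 0.990 among wild type and 0.960 to 0.980 between groups. On the 1 slide used, Plk2 null samples took row 2 and wild-type samples row 1, so row and genotype cannot be told apart. Plk2 itself was not well above background on any Plk2 null array (signals of 1.87 to 2.44, against 1160 to 1472 in wild type). All 10 epithelial markers were measured, keratins included, and their median difference was -0.01. That median lay between opposite shifts, with 5 positive and 5 negative differences from -0.71 to 0.96. With spike-in scaling it was 0.25, with 8 positive and 2 negative. Of markers of other cells, all 15 lymphocyte markers were lower in every Plk2 null sample than in any wild-type sample, with a median of -2.41 and a summed level of 7.74 to 15.6 in Plk2 null samples against 30.1 to 52.6 in wild type, and all 12 fibroblast markers had negative differences, with a median of -0.53 and a sum of 1172 to 1665 against 1766 to 1917. The median was -0.47 for 10 endothelial markers (sums of 87.3 to 155.1 against 145.0 to 203.1), -0.46 for 10 myeloid markers (145.3 to 172.0 against 152.1 to 212.1) and 0.23 for 7 adipocyte markers (280.7 to 481.7 against 279.8 to 391.0), while basal markers had a median of 0.51 (754.0 to 881.1 against 435.9 to 707.3) and luminal markers -0.09 (1931 to 2566 against 2096 to 2206). With spike-in scaling the lymphocyte median was -2.15. The fibroblast median was -0.27 there, with 10 negative and 2 positive. Medians were then -0.21 for endothelial, -0.20 for myeloid, 0.49 for adipocyte, 0.77 for basal and 0.17 for luminal markers. Of the 80 cell type markers 1 passed the test, the luminal progesterone receptor gene Pgr (-1.96, SE 0.26; limma adjusted p = 0.0420). The luminal factor gene Elf5 had a positive difference of like size that did not (1.70, SE 0.29; adjusted p = 0.0566). Calls among these markers depended on the scaling, with 16 under normexp background correction, 14 with the deposited table's values and 3 with spike-in scaling, where Pgr was not called (adjusted p = 0.0630). All 17 measured genes of mitosis, of 20 listed, had positive differences, with a median of 2.07 (sums of 51.9 to 164.6 against 14.6 to 23.2). None of the 17 passed the test, though 10 did with normexp background correction. The part of these shifts in the results on p53 targets was not tested, and in such mixed samples fewer cells of a type and less RNA per cell cannot be told apart.

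p53 binds as a tetramer to a pair of half-sites, each made of 3 purines, a core of C, 2 bases that are A or T, and G, then 3 pyrimidines. RefSeq promoters (GRCm38.p6, 250 bases before to 50 bases after a start site) were at hand for 9 of the 10 genes, in 11 promoters. The half-site was searched with no mismatch. It equals its own reverse complement in this notation, so one search covers both strands. At least 1 half-site lay in the promoters of 5 of the 9 genes (Trp53, Mdm2, Ccng1, Sesn1 and Gadd45a), and 8.36% of all 32851 promoters hold one (9.55% of genes). No half-site lay in these windows of Btg2, Sesn2, Gdf15 and Phlda3. A pair of half-sites up to 13 bases apart with at most 1 mismatch in all occurred in 1 of the 9, Ccng1, and in 1.09% of all promoters. The capitals in Ccng1 spell the sequence known as the p53 element of the cyclin G gene. The p53 elements known to drive Mdm2 and Gadd45a lie in introns, outside these windows. The promoters of Gadd45a and Mdm2, whose levels were lower in every Plk2 null sample, are shown with that of Ccng1, whose levels overlapped, and half-sites or the pair are in capitals:
Gadd45a, chr6:67037358-67037657, minus strand: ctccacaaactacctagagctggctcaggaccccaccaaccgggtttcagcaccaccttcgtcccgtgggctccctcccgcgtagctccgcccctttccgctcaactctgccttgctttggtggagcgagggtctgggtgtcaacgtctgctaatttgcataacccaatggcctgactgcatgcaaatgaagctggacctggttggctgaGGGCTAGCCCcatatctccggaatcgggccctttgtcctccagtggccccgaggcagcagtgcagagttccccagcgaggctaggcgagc
Mdm2, chr10:117710709-117711008, minus strand: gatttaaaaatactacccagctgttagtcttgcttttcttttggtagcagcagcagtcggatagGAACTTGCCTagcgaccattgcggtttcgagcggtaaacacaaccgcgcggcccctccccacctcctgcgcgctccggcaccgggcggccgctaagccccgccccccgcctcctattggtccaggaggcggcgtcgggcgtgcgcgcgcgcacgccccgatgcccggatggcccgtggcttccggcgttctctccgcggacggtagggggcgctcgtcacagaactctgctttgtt
Ccng1, chr11:40755237-40755536, minus strand: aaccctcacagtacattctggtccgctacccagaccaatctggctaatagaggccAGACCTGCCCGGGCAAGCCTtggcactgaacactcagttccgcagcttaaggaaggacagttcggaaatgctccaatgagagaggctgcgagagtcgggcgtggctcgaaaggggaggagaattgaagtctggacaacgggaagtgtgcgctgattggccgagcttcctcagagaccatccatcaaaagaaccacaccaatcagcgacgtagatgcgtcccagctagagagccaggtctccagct
Shorter stretches with 25 bases on either side show the half-sites of Trp53 and of the start site of Sesn1 that has one, and, as the textbook p53 target, the 2 half-sites near a start site of Cdkn1a:
Trp53, chr11:69580259-69580318, plus strand: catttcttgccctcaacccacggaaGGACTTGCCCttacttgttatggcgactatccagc
Sesn1, chr10:41887241-41887300, plus strand: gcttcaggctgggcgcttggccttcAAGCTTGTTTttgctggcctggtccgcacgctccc
Cdkn1a, chr17:29090881-29090962, plus strand: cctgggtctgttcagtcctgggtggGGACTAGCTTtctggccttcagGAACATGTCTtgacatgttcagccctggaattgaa
Relative to the start site, the half-site begins at position -40 in Gadd45a, -186 in Mdm2, -185 in Ccng1, -75 in Trp53 and -173 in Sesn1. The capitals in Cdkn1a mark only half-sites without a mismatch, and the window of its other start site holds none. A match of letters is a description and does not show that p53 binds there.

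The difference was positive for Trp53 mRNA and negative for Mdm2 mRNA, and neither passed the test. The level of Trp53 was -0.47, -0.17 and -0.68 in Plk2 null samples 1 to 3, against -0.68, -1.23 and -0.78 in wild-type samples 1 to 3. Plk2 null sample 3 and wild-type sample 1 lay at almost the same level, and the groups overlapped by that narrow margin. The difference was 0.46 (SE 0.21, 95% interval -0.06 to 0.97; limma adjusted p = 0.261), and it was 0.29 without wild-type sample 2, the lowest of the 6. Mdm2, the ubiquitin ligase and feedback target, had levels of 5.15, 5.01 and 5.08 in Plk2 null samples, against 5.42, 5.29 and 5.37 in wild type. Its 3 Plk2 null values lay below all wild-type values, with an SD of 0.07 in both groups. The difference was -0.28 (SE 0.13, 95% interval -0.60 to 0.04; limma adjusted p = 0.266). With spike-in scaling it was -0.02 (adjusted p = 0.966), and the groups overlapped there and with normexp background correction.

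Of the 3 targets that act on the cell cycle, only Gadd45a separated the groups. Ccng1 encodes cyclin G, which recruits a phosphatase to Mdm2. Its level was 1.32, 1.41 and 1.57 in Plk2 null samples, against 1.52, 1.30 and 1.37 in wild type. The ranges overlapped almost fully, and the difference was 0.04 (SE 0.15, 95% interval -0.31 to 0.39; limma adjusted p = 0.899). Btg2 encodes an antiproliferative protein that binds the deadenylase complex. Its level was 3.75, 3.21 and 4.53 in Plk2 null samples, against 3.50, 3.55 and 3.90 in wild type. The Plk2 null samples held both the highest and the lowest of the 6 values, with an SD of 0.66 against 0.22 in wild type. The difference of 0.18 (SE 0.34, 95% interval -0.62 to 0.99; limma adjusted p = 0.770) was 0.49 without Plk2 null sample 2 and took the opposite sign, -0.17, without Plk2 null sample 3. Gadd45a encodes a stress protein that binds PCNA and the stress kinase MTK1 and can hold cells before mitosis. Its level was 1.76, 1.48 and 1.86 in Plk2 null samples, against 2.28, 2.28 and 2.36 in wild type. The wild-type samples were within an SD of 0.05 of each other, and every Plk2 null sample lay below them. The difference of -0.61 (SE 0.15, 95% interval -0.97 to -0.24), a 1.52-fold lower signal, had the smallest p of the 10 genes (limma adjusted p = 0.0983), which is not under 0.05. It crossed the threshold in 2 of 18 alternatives, with normexp background correction (adjusted p = 0.0487) and with the normalized values of the authors' deposited table (adjusted p = 0.0471). Over all 18 its adjusted p lay between 0.0471 and 0.415. With normexp 1204 of all 24613 entries were called, and with the deposited table's values 755, against 136 in the main test.

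The targets in stress defence and signalling were likewise split between genes with separate groups and genes with overlapping ones. Sesn1 and Sesn2 encode sestrins, which curb the growth kinase mTORC1 and limit oxidative damage. Sesn1 had levels of 1.40, 1.31 and 1.84 in Plk2 null samples, against 1.94, 1.76 and 1.53 in wild type, so that Plk2 null sample 3 lay inside the wild-type range. The difference was -0.22 (SE 0.20, 95% interval -0.70 to 0.25; limma adjusted p = 0.534). It was -0.12 without Plk2 null sample 2, -0.13 without wild-type sample 1 and -0.38 without Plk2 null sample 3. Sesn2 had levels of 2.73, 2.97 and 2.41 in Plk2 null samples, against 2.97, 3.21 and 3.19 in wild type. The groups did not overlap, though Plk2 null sample 2 and wild-type sample 1 were all but equal. The difference was -0.42 (SE 0.19, 95% interval -0.87 to 0.03; limma adjusted p = 0.242) and -0.27 without Plk2 null sample 3.

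Gdf15, a secreted member of the TGF-beta superfamily that is released by stressed cells, had the widest difference of the 10 genes. Its level was 3.20, 2.34 and 3.73 in Plk2 null samples, against 3.996, 4.30 and 4.26 in wild type. All Plk2 null values lay below all wild-type values, but they spread with an SD of 0.70, against 0.17. The difference was -1.10 (SE 0.35, 95% interval -1.92 to -0.27; 2.14-fold lower; limma adjusted p = 0.140). It was -0.72 without Plk2 null sample 2 and -1.42 without Plk2 null sample 3.

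Trp53inp1 encodes a stress protein that modifies p53 and takes part in autophagy. The probe with the higher signal gave levels of 3.88, 3.09 and 3.68 in Plk2 null samples, against 4.15, 4.65 and 4.26 in wild type, and a difference of -0.80 (SE 0.25, 95% interval -1.40 to -0.20; 1.74-fold lower; limma adjusted p = 0.138). Both probes kept the groups apart. The second gave 0.93, 0.58 and 0.88 in Plk2 null samples, against 1.59, 1.84 and 1.22 in wild type, with a difference of -0.76 (SE 0.21; adjusted p = 0.110 in the limma fit with every probe as its own entry). The 2 probes carry the same transcript accession, NM_021897, and are not independent samples. Phlda3, a pleckstrin-homology protein that competes with Akt for the membrane, had levels of 4.50, 4.58 and 4.38 in Plk2 null samples, against 4.29, 4.44 and 4.67 in wild type. Its groups overlapped fully, with a difference of 0.02 (SE 0.16, 95% interval -0.36 to 0.40; limma adjusted p = 0.948).

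**Figure D1:**
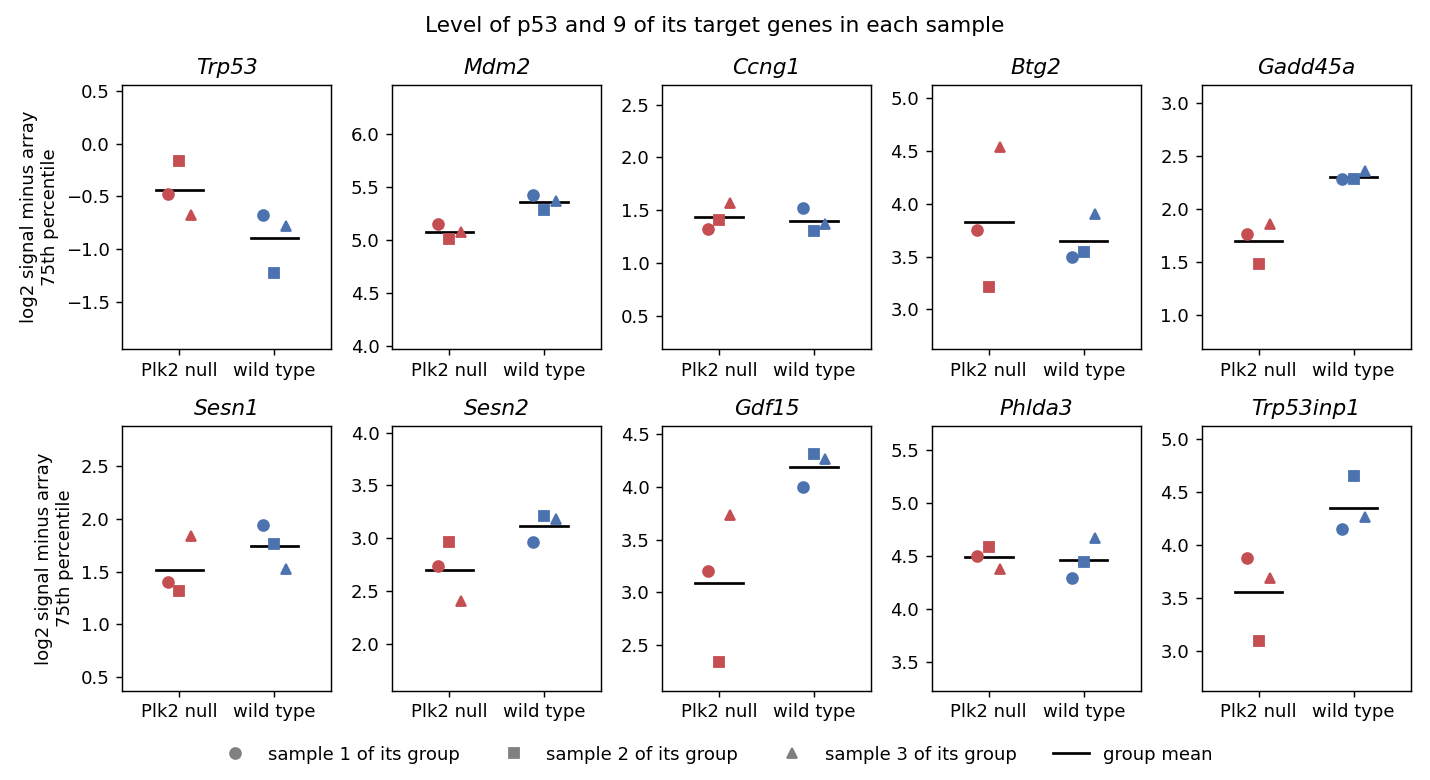
Level of each of the 10 genes (log2 processed signal minus the array's 75th percentile, every panel spanning the same range of log2 units) in the 3 Plk2 null samples, left, and the 3 wild-type samples, right, with a line at each group mean. Mdm2, Gadd45a, Sesn2, Gdf15 and Trp53inp1 show no overlap between the groups, and Btg2 spreads most widely among the Plk2 null samples next to Gdf15.

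Across the 10 genes, 0 passed an adjusted p of 0.05 by limma, where 0.553% of all entries did, and 1, Gadd45a, was under an adjusted p of 0.1, where 6.48% of all entries were. At an unadjusted p under 0.05 by limma 3 were lower (Gadd45a, Gdf15 and Trp53inp1) and 0 higher. Over all entries 9.64% were lower and 22.7% differed in either direction at that level. The groups did not overlap for 5 genes (Mdm2, Gadd45a, Sesn2, Gdf15 and Trp53inp1), all lower in Plk2 null samples. Over all entries the groups lay apart for 31.2%, and 12.1% were lower in every Plk2 null sample. The median difference of the 10 genes was -0.25 beside 0.03 for all entries. By sign, 6 were negative and 4 positive (Trp53, Ccng1, Phlda3 and Btg2), and 47.6% of all entries were negative.

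The size of these differences moved with the scaling of the arrays. Scaling on spike-in controls shifts all values of an array by the same amount. It moved the median of all entries by 0.26, to 0.28, and that of the 10 genes to 0.005. The genes lay 0.28 below all entries under both scalings, but this gap is fixed by the method and does not test the result. The spike-in median stood 3.87, 4.16 and 4.55 log2 units above the 75th percentile in Plk2 null samples, against 4.41 to 4.49 in wild type. With spike-in scaling only Gdf15 still had separate groups and an unadjusted p under 0.05 (difference -0.84; limma adjusted p = 0.184). Gadd45a was then at -0.35 and Trp53inp1 at -0.54. With quantile normalization the groups were separate for the same 5 genes and for Trp53, which was higher at 0.48 (adjusted p = 0.244), and 5 genes were lower at an unadjusted p under 0.05. Median centring also kept the groups separate for the same 5 genes and for Trp53, higher at 0.49 (limma adjusted p = 0.275). The plot of differences under 4 scalings gives each gene's interval.

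**Figure D2:**
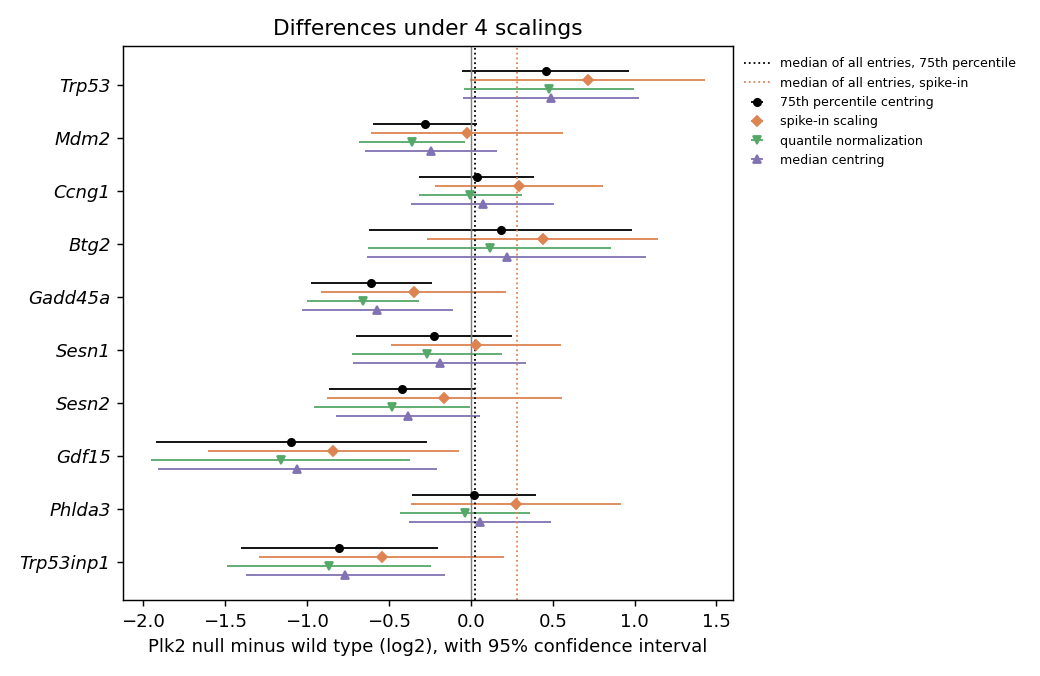
Difference between Plk2 null and wild-type samples (log2) for each gene, as points with 95% confidence intervals from limma, under 75th percentile centring, spike-in scaling, quantile normalization and median centring. Dotted lines mark the median of all entries for 75th percentile centring (0.03) and spike-in scaling (0.28); spike-in scaling places every gene 0.26 higher.

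Among the Plk2 null samples, sample 2 stood lowest for 6 of the 10 genes and highest for 3 (Trp53, Sesn2 and Phlda3). Set against the wild-type mean of each gene, the median of the 10 genes was -0.28, -0.39 and -0.18 in Plk2 null samples 1, 2 and 3. Gdf15 lay at -0.98, -1.85 and -0.46, and Trp53inp1 at -0.48, -1.26 and -0.67. Btg2 instead changed sign between samples, at 0.10, -0.43 and 0.88. The median of 14 early stress genes, which respond to tissue dissociation, lay at -0.17, -0.65 and 0.49 in the same order, and Btg2 belongs to that class of genes. Genes of mitosis lay at 1.52, 3.18 and 1.63, and lymphocyte markers at -2.83, -3.14 and -1.34. Among the Plk2 null samples, sample 2 was lowest in Gdf15 and Trp53inp1 and in the early stress and lymphocyte genes. It was highest in the mitosis genes and in Sesn2, at -0.16, against -0.39 in sample 1 and -0.71 in sample 3. The part of dissociation, proliferation and lymphocytes in the levels of the 10 genes was not tested.

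**Figure D3:**
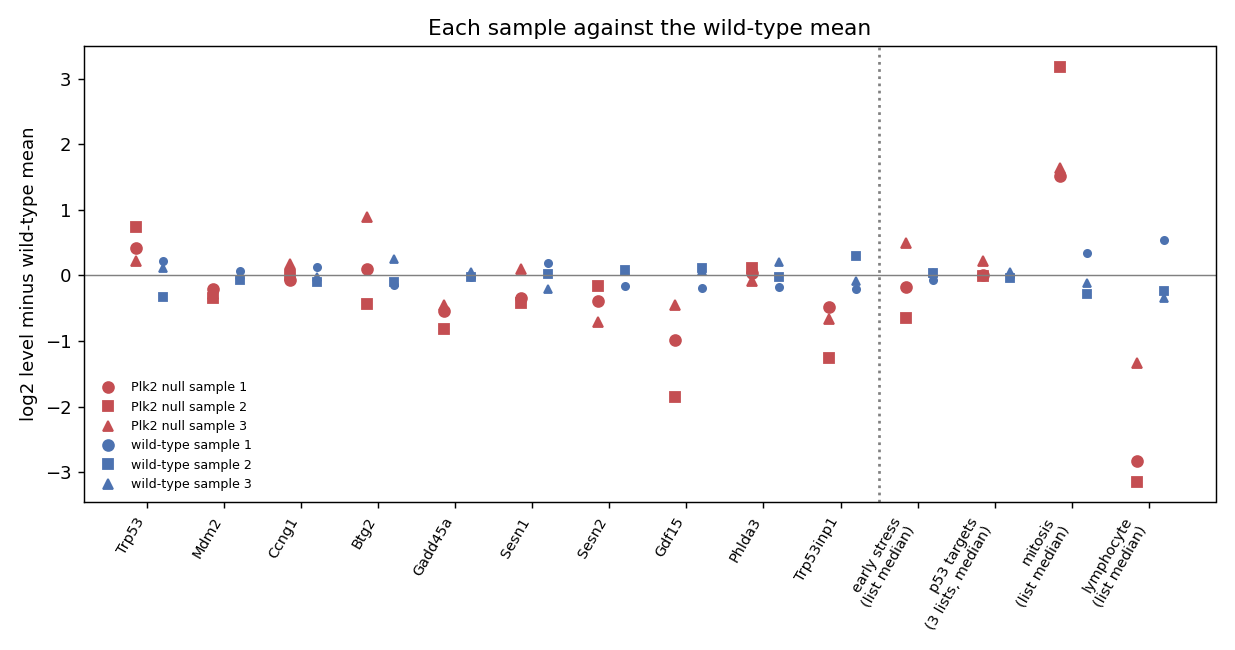
Log2 level of each sample minus the wild-type mean, for the 10 genes and, right of the dotted line, for the medians of 4 gene groups; red marks are Plk2 null samples and blue marks wild-type samples. Plk2 null sample 2 (squares) is lowest for Gdf15, at -1.85, and for Gadd45a, Btg2, Trp53inp1 and the early stress genes, while mitosis genes lie at 1.52 to 3.18 in the Plk2 null samples. Among the red marks, that sample is highest for Trp53, Sesn2 and Phlda3.

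The nearest relatives of these genes were measured for 11 of 12 names. None passed the test. At an unadjusted p under 0.05 by limma 3 were lower, where 9.64% of all entries were, and 0 higher. The median was -0.15, with 7 negative and 4 positive. With spike-in scaling it was 0.11, with 3 negative and 8 positive, and 0 were lower at that level. The 3 were Trp53inp2, which acts in autophagy, and Gadd45b and Gadd45g, the relatives of Gadd45a that are induced by cytokines and other stress more than by p53. Gadd45b had levels of 4.18, 3.49 and 4.88 in Plk2 null samples, against 5.13, 5.16 and 5.12 in wild type, a difference of -0.96 (SE 0.33; limma adjusted p = 0.164). Gadd45g had levels of 6.83, 6.32 and 7.44, against 7.81, 7.61 and 7.58 in wild type, a difference of -0.80 (SE 0.28; adjusted p = 0.168, or 0.0464 with the deposited table's values). All 3 genes of the Gadd45 family were thus lower in each Plk2 null sample than in any wild-type sample, with sample 2 lowest in each. Over all entries 12.1% were lower in every Plk2 null sample. With spike-in scaling Gadd45b and Gadd45g still had separate groups, at -0.70 and -0.54, while Gadd45a did not; with median centring Gadd45g overlapped, at -0.77. Trp53inp2 differed by -0.68 (SE 0.20; adjusted p = 0.126). The p53 relative Trp63, a basal cell factor, differed by -0.25 (SE 0.16; adjusted p = 0.402), and by 0.01 with spike-in scaling.

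Other p53 targets had differences of both signs. Of 45 further targets in 3 lists, 44 were measured. They had a median of 0.10, with 25 positive and 19 negative, and 0 passed the test. At an unadjusted p under 0.05 by limma 7 were higher and 3 lower, or 22.7%, the share found over all entries. By list the share was 42.9% for arrest and repair (4 higher and 2 lower), 21.4% for apoptosis and 6.25% for metabolism. With spike-in scaling the median of the 44 was 0.35, with 35 positive and 9 negative, and 9 were higher and 0 lower at that level. The best known target, Cdkn1a, encodes the cell cycle inhibitor p21. Its level was 4.82, 4.49 and 4.98 in Plk2 null samples, against 5.10, 5.28 and 5.31 in wild type. The groups were separate, with a difference of -0.46 (SE 0.18; limma adjusted p = 0.187), and they overlapped with spike-in scaling, at -0.21, and with median centring, at -0.43. Among arrest and repair genes (median 0.16, 14 measured), the RNA-binding protein gene Zmat3 differed by -0.57 (SE 0.16; adjusted p = 0.113). Higher values came from the cyclin D1 gene Ccnd1 (1.08, SE 0.21; adjusted p = 0.0695, or 0.0379 with normexp background correction), the repair gene Mgmt (0.59, SE 0.17; adjusted p = 0.121) and Ddb2, which recognises ultraviolet damage (0.39, SE 0.14; adjusted p = 0.169). Ccnd1 is driven mainly by growth signals, and Plk2 null and wild-type samples were apart for it, at 3.73 to 4.09 against 2.43 to 3.04.

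Among apoptosis targets (median 0.02, 14 measured, 7 positive and 7 negative) Bax, which opens the mitochondrial membrane, differed by 0.15 (SE 0.19; limma adjusted p = 0.676). Siva1 (0.74, SE 0.25; adjusted p = 0.152) and Pidd1, a scaffold of caspase activation (0.87, SE 0.32; adjusted p = 0.181), had positive differences. Pidd1 was dim, with 1 of 3 wild-type samples not well above background, and differed by 0.17 with normexp background correction. The death receptor gene Tnfrsf10b (-0.39, SE 0.14; adjusted p = 0.169) and the nuclease gene Aen (-0.31, SE 0.15; adjusted p = 0.271) had negative ones. Metabolic targets had a median of 0.07 over 16 genes. That median was -0.04 with the deposited table's values, -0.005 with quantile normalization and 0.33 with spike-in scaling, where 15 of 16 were positive. The xylulose reductase gene Dcxr had the smallest p (0.45, SE 0.18; adjusted p = 0.203), followed by the glutaminase gene Gls2 (0.37, SE 0.18; adjusted p = 0.276), Abhd4 (0.26, SE 0.19; adjusted p = 0.450) and the peroxidase gene Gpx1 (0.22, SE 0.17; adjusted p = 0.466).

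Genes that act on p53 had a median of 0.10, with 17 of 25 positive. None passed the test, and 4 were higher at an unadjusted p under 0.05 by limma and 0 lower. These 4 are 16% of the list, near the 13.1% of all entries that were higher at that level. They were Chek2, the checkpoint kinase that phosphorylates p53 (1.17, SE 0.26; limma adjusted p = 0.0827), Cdkn2a, whose locus encodes the Mdm2 inhibitor Arf as well as p16 (0.79, SE 0.23; adjusted p = 0.121), the nucleolar gene Npm1 (0.46, SE 0.16; adjusted p = 0.166) and the ribosomal protein gene Rpl5, whose product can bind Mdm2 (0.36, SE 0.14; adjusted p = 0.190). Chek2 was at -2.72, -1.92 and -2.41 in Plk2 null samples, against -3.48, -3.25 and -3.83 in wild type. With normexp background correction it differed by 0.34 and its groups overlapped. Plk2 null sample 2 was highest for Chek2 and for the mitosis genes, and the part of proliferation in Chek2 was not tested. Mdm4, the partner of Mdm2, differed by -0.02 (SE 0.22; adjusted p = 0.966). Of 13 genes of the ATF4 stress response, which shares Sesn2 and Gdf15 as targets, 9 were negative, with a median of -0.22, or 0.04 with spike-in scaling. At an unadjusted p under 0.05 by limma 2 were lower, Vldlr (-0.47, SE 0.17; adjusted p = 0.166) and Chac1, a glutathione-degrading enzyme (-0.62, SE 0.22; adjusted p = 0.167), and 1 higher, the serine synthesis gene Phgdh (0.84, SE 0.24; adjusted p = 0.123). Together they are 23.1% of the list, near the 22.7% of all entries that differed in either direction at that level. Ddit3, which encodes CHOP, differed by -0.42 (SE 0.18; adjusted p = 0.225). Early stress genes had a median of -0.12, with 12 of 14 negative, but 0.14 with spike-in scaling, with 12 of 14 positive. At an unadjusted p under 0.05 by limma 1 was lower, the heat shock gene Hspa1a (-0.86, SE 0.35; limma adjusted p = 0.209). That is 7.14% of the list, where 9.64% of all entries were lower. The next smallest p-values among early stress genes were those of Klf6 (-0.18, SE 0.17), Klf2 (-0.32, SE 0.40) and Jun (-0.22, SE 0.28).

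**Figure D4:**
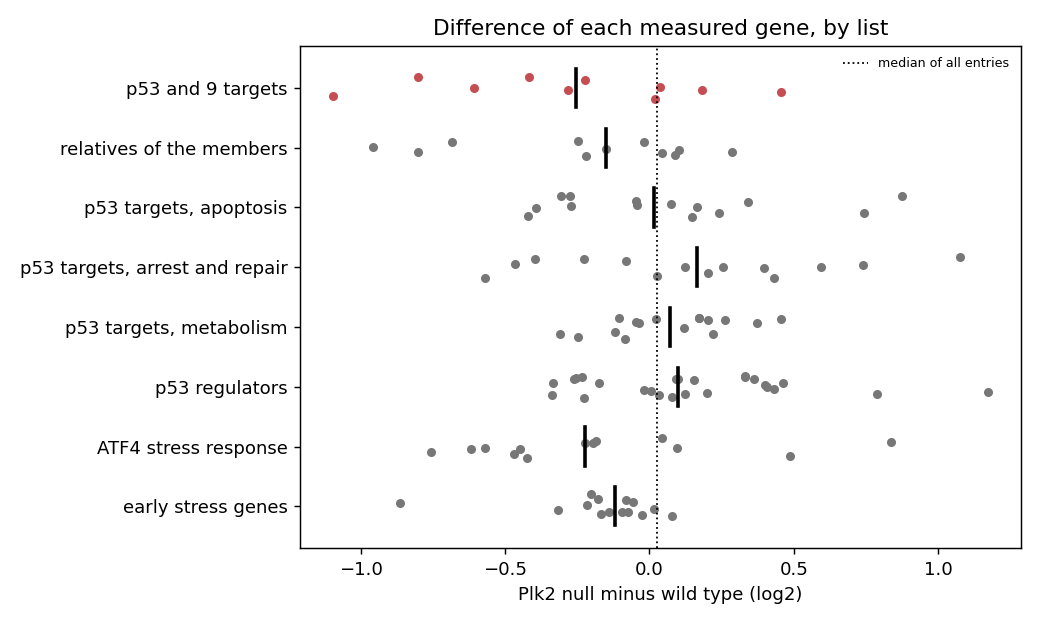
Difference between Plk2 null and wild-type samples (log2) of each measured gene in 8 lists, 1 point a gene, with a bar at each list's median and a dotted line at the median of all entries (0.03). The 10 genes have a median of -0.25, with Gdf15 at -1.10 and Trp53 at 0.46 as the ends of their range, while the 3 lists of other p53 targets have medians of 0.02, 0.16 and 0.07.

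Over the 6 samples the named genes whose profile was most like that of Gadd45a, the gene with the smallest p of the 10, were Plaur, Tns2 and Fam126a. Each profile (level minus the gene's own mean) differed from that of Gadd45a by a mean of 0.04 log2 units or less, the closest among 14418 named entries. Plaur, the urokinase receptor gene, was at 5.34, 5.15 and 5.57 in Plk2 null samples, against 5.93, 5.89 and 6.05 in wild type.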

How the data were processed

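RNA of 6 samples was amplified, labelled with Cy3 and read on Agilent arrays of design 028005 with Agilent Feature Extraction 11.0.1.1, per the file headers and the labels' protocols. The intensity of each spot is the processed signal, background-subtracted in the deposited files by that software, per their headers; no normalization between arrays had been applied to these. A deposited table of intensities normalized between arrays by the authors, by steps not given in the sources used here, served as an alternative. Its p-value, ratio and signed score columns were deposited by the authors and not used.

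Log2 signals were centred on each array's 75th percentile over 59305 gene spots. Control spots and 1119 outlier spots were left out, and spots of a probe averaged. Accessions matched a RefSeq table (GRCm38.p6, names only) for 26582 of 55681 probes. Probes well above background on at least 3 arrays were kept, the brightest standing for its gene, which gave 24613 entries with 44 missing values, none in the 10 genes. Differences were tested in R 4.3.3 with limma 3.58.1 (a linear model with moderated variances), Benjamini-Hochberg adjusted, threshold 0.05. A summed level adds the linear signals divided by the array's 75th percentile. The steps were tested on simulated arrays. Precision is limited by the 3 arrays a group.

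The 10 genes, the 16 other lists and the alternatives were chosen with earlier results of these data known. Named are all 10 genes, Plk2, Cdkn1a, Bax, Mdm4, Trp63 and, in each other list, the 4 genes with the smallest p and any past the threshold; of the marker and mitosis lists only the gene past the threshold and the next by p in its list are printed, and the rest are given as counts and sums. The 3 genes closest to the member with the smallest p in mean absolute difference of profile are also named. Alternatives were normexp background correction (offset 50), quantile, median and spike-in scaling, other filters and probe summaries, other moderation, array weights, a replicate block, the deposited table and each array left out.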

Additional observations from a re-analysis of the deposited data

How the results depend on the processing

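With 1 array left out Ccng1 ran from -0.031 to 0.10, Phlda3 from -0.068 to 0.12, Sesn1 from -0.38 to -0.12 and Btg2 from -0.17 to 0.49. Over 18 alternatives Trp53 stayed positive and Mdm2, Sesn2, Gadd45a, Gdf15 and Trp53inp1 stayed negative. Among these, Mdm2 was only at -0.023 with spike-in scaling. The filters, separate probes, trend and robust moderation and the replicate block left all 10 differences unchanged, so they could not turn a sign. Averaging the probes of a gene moved only Trp53inp1. Signs turned for 4 genes: Ccng1 to -0.012 with normexp background correction, -0.0018 with quantile normalization, -0.055 with the deposited table's values, and -0.031 and -0.012 without Plk2 null sample 3 or wild-type sample 2; Phlda3 to -0.034 with quantile normalization and to -0.027 and -0.068 without Plk2 null sample 2 or wild-type sample 1; Btg2 to -0.012 with array weights and -0.17 without Plk2 null sample 3; and Sesn1 to 0.033 with spike-in scaling, where the median of the 10 genes was 0.0046. That median ran from -0.30 to -0.18 with 1 array left out. Gadd45a, 1 of the 10, passed with normexp and with the deposited values (-0.54, adjusted p = 0.0487, and -0.60, adjusted p = 0.0471), against 0 members in the other 16. Normexp and the deposited values also called more of all entries, 1204 and 755 against 136 in the main test. Array weights called 1107 entries and no member. The all-entry median was -0.0047 with normexp and -0.11 without the filter.

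The number of entries called was 136 (54 higher and 82 lower). It was 1204 with normexp (686 and 518), 340 with median centring (176 and 164), 273 with spike-in scaling (156 and 117), 755 with the deposited table (377 and 378), 31 with no filter, 382 with all 6 arrays above background, 831 with trend and robust moderation, 1107 with array weights and 8 with the replicate block. It ran from 7, without Plk2 null sample 1 or wild-type sample 2, to 735 without Plk2 null sample 3, and was 48, 30 and 42 without Plk2 null sample 2, wild-type sample 1 or wild-type sample 3. Samples that share a number did not deviate together (correlations of -0.12, 0.04 and -0.02 for numbers 1, 2 and 3), so the block pairs samples that share only a number; it called no member. With 3 arrays a group, the intervals of the 10 genes allow differences of up to 0.40 in Phlda3 and up to 0.99 in Btg2.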
